A study of Pyrus hybrid rootstock with 24 samples.

Results

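The step from 9 to 30 days after grafting (DAG) in pear heterografts was followed by RNA-seq in the graft union, the piece of stem in which scion and rootstock join. It was compared between the 3 heterograft libraries of day 30 and the 3 of day 9, which are 6 of the 24 libraries of the series. Genes with at least 1 FPKM (reads on a gene scaled by its length and by the depth of the library) in at least 3 of these 6 libraries were tested. This filter was met by 25081 of the 42812 genes measured (58.6%). Among the others, 8691 were above 0 in at least 1 of the 6 libraries and 9040 were listed at 0 in all 6.

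The study micrografted plantlets in tissue culture and sampled graft unions on 4 days, to compare a heterograft with a homograft during healing. DVC denotes the heterograft at 30 DAG and DSD the heterograft at 9 DAG, in both cases QAUP-1 (Pyrus ussuriensis) as scion on Qingzhen D1 rootstock, a hybrid of Pyrus communis and Pyrus bretschneideri. SVC and SSD are the homografts of Qingzhen D1 on Qingzhen D1 at 30 and 9 DAG. DSS and DCF are heterografts at 1 and 5 DAG, and SSS and SCF are homografts on those days. Each of the 8 groups had 3 libraries, which the study describes as biological replicates. The study names the 9 DAG stage cambium differentiation, writing DCD and SCD for the groups labelled DSD and SSD, and the 30 DAG stage vascular connection. It treats the heterograft as an incompatible combination and reports that its vascular connection was abnormal, with gaps seen as late as 30 DAG. Grafts in all groups were held by silicon tubing and grew on a medium that supplied sucrose, the cytokinin 6-BA and the auxin IBA, so no group was free of added hormone. How many plantlets entered a library is not given in the sources used here. RNA of scion and rootstock was sequenced together, and time since grafting and time in culture cannot be told apart. In such bulk samples fewer cells of a type and less RNA per cell cannot be told apart either.

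A graft union heals by wound response, callus formation at the cut faces, differentiation of a new cambium across the callus, and finally the joining of xylem and phloem. Auxin, which enters cells through AUX1 carriers, promotes vascular differentiation. It acts through degradation of AUX/IAA repressors, and GH3 and SAUR genes are among the rapidly induced auxin-responsive genes. Cytokinin promotes cell division and cambial activity through a phosphorelay in which AHP proteins pass phosphate to type-B ARR transcription factors, whose targets include the type-A ARRs, inhibitors of the same pathway.

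The gene table gives identifiers without names, so the labelled tissue, stem, could not be checked against marker genes. Roles were used for 18 genes. Of these, 17 are auxin and cytokinin genes whose identifiers were read from the study's heat maps of hormone pathways, and a misread digit could not be checked. The study chose them for their expression in these same libraries, so their direction is not independent evidence. The other is the β-glucosidase gene PbBglu13. Further genes that the study shows for lignin and for starch and sucrose metabolism were not identified here. For the remaining genes counts, levels and time courses are given.

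Between DVC and DSD, 817 genes were called, that is, changed by more than 1 on the log2(FPKM + 1) scale at an adjusted p under 0.05 (limma, Benjamini-Hochberg over the 25081 genes tested). These were 3.26% of the genes tested. Of them 448 rose (1.79%) and 369 fell (1.47%). Under upper-quartile scaling the balance turned, with 390 up and 414 down, and it also turned without DSD1 or without DVC3. The count depended on single day 9 libraries. It was 1206 without DSD1 and 464 without DSD2, and 464 with the spread estimated from the 6 heterograft libraries alone. Fold changes on this scale understate the change of genes with low FPKM. Without the threshold on fold, 5579 genes (22.2%) passed the adjusted p, 3124 of them higher in DVC (12.5%) and 2455 lower in DVC (9.79%). Most differences at this step were small. The median log2 fold change over all tested genes was 0.03, and the middle 90% lay between −0.71 and 0.73.

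The 18 genes with a role moved little as a group and mostly in single members. Among the 17 auxin and cytokinin genes 1 rose and 2 fell by the criteria of the 817 calls, against 1.79% and 1.47% of all tested genes in those directions. At the adjusted p alone 3 were higher and 2 lower in DVC. Their median log2 fold change was −0.25, beside 0.03 over all tested genes. In 6 of the 17 the 3 DVC libraries did not overlap the 3 DSD libraries, and over all tested genes this held for 34.5%.

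**Figure D1:**
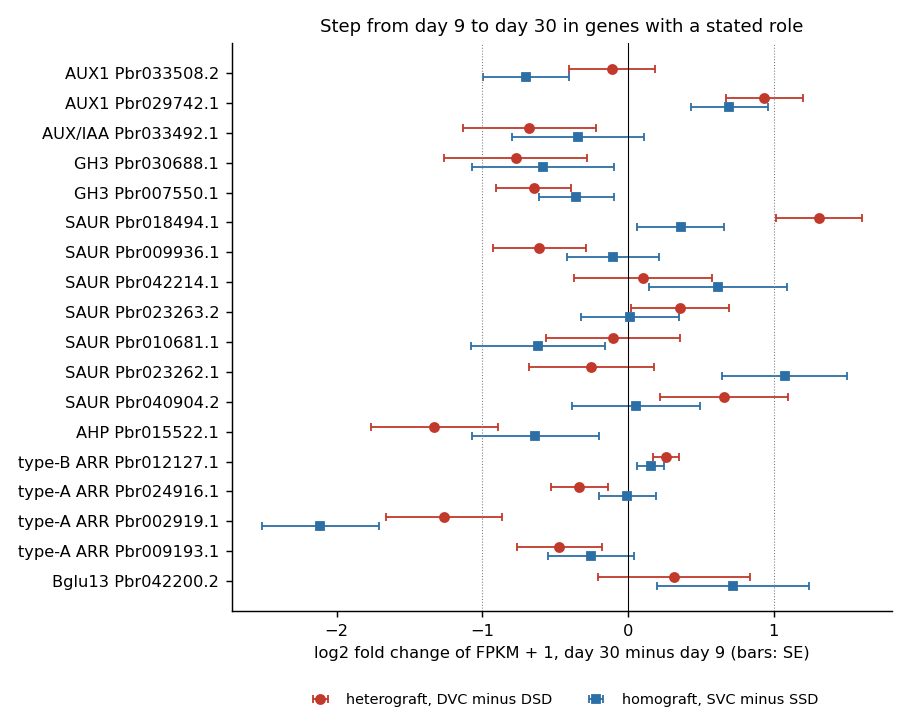
Log2 fold change of FPKM + 1 between day 30 and day 9 (horizontal axis, bars are standard errors from the limma fit) for each gene whose role was used here (vertical axis), in heterografts (DVC minus DSD, circles) and homografts (SVC minus SSD, squares). The SAUR gene Pbr018494.1 lies at 1.31 in heterografts, and the AHP gene Pbr015522.1 and the type-A ARR gene Pbr002919.1 lie at −1.33 and −1.26.

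Of the auxin carriers, the AUX1 gene Pbr029742.1 was higher at day 30. Its level was 3.54, 2.08 and 1.92 FPKM in the DVC libraries, against 0.990, 0.374 and 1.14 FPKM in the DSD libraries. All 3 DVC libraries lay above all 3 DSD libraries. The log2 fold change was 0.93 ± 0.26 (SE), with an adjusted p of 0.0162 in limma, just short of the threshold on fold. It rests on 130 reads in the DVC libraries and 41 reads in the DSD libraries. With a pseudocount of 0.1 in place of 1 the log2 fold change was 1.55 and the gene was called. The adjusted p in limma was past 0.05 with only the 6 heterograft libraries in the fit (0.0779), without DSD2 (0.0989) and without DVC1 (0.0944).

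The other AUX1 gene, Pbr033508.2, was expressed at a higher level and did not separate the days. It had 16.1, 13.3 and 14.5 FPKM in DVC, against 13.3, 12 and 24.5 FPKM in DSD. Its log2 fold change was −0.11 ± 0.30 (SE; limma, adjusted p = 0.828). A missed threshold does not show equal levels, here or in the genes that follow.

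The AUX/IAA gene Pbr033492.1, a repressor of auxin response, had 0.269, 1.49 and 3.90 FPKM in DVC, against 3.34, 2.48 and 3.21 FPKM in DSD. The DVC libraries spanned more than the whole DSD range, and the log2 fold change of −0.68 ± 0.46 (SE) did not pass the test (limma, adjusted p = 0.304).

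GH3 enzymes attach amino acids to auxin and thereby lower its free level. Neither GH3 gene was called. Pbr030688.1 had 2.94, 3.62 and 5.49 FPKM in DVC, against 1.43, 15.2 and 13.9 FPKM in DSD. The replicate DSD1 stood apart here, below all DVC libraries, while DSD2 and DSD3 lay above them. The log2 fold change was −0.77 ± 0.49 (SE; limma, adjusted p = 0.273), and without DSD1 it was −1.66 with an adjusted p of 0.00149. Pbr007550.1 had 0.411, 0.481 and 0.538 FPKM in DVC, against 1.05, 1.70 and 1.23 FPKM in DSD. All DVC libraries were lower, but the log2 fold change of −0.65 ± 0.26 (SE) missed the threshold (limma, adjusted p = 0.0781). With a pseudocount of 0.1 it was −1.29 with an adjusted p of 0.0175 in limma, and with voom on recovered reads it was −1.39 with an adjusted p of 0.169. The gene rested on 32 reads in DVC and 81 in DSD.

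SAUR genes form a large family of short auxin-responsive genes, and how reads shared by near-identical copies were counted is not stated. Values of single members are therefore uncertain. Of the 7 SAUR genes, which the study picked for their expression in these libraries, 1 rose, beside 1.79% of all tested genes. Pbr018494.1 had 8.81, 8.73 and 12.6 FPKM in DVC, against 3.38, 4.36 and 2.62 FPKM in DSD. The groups were well apart, and the log2 fold change was 1.31 ± 0.30 (SE; limma, adjusted p = 0.00425). Omitting any 1 of the 6 libraries kept this call. The other 6 SAUR genes overlapped between days and passed no test, with log2 fold changes from −0.61 for Pbr009936.1 to 0.66 for Pbr040904.2. All 6 were below 6 FPKM in every DVC and DSD library. Pbr023263.2 rested on 10 reads in DVC and 4 in DSD, and Pbr023262.1 on 10 reads in DVC and 12 in DSD, so moderate changes of these were not detectable at this depth.

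Of the 5 cytokinin genes, which the study picked for their expression in these libraries, 2 fell, beside 1.47% of all tested genes. The AHP gene Pbr015522.1, the phosphotransfer step, had 2.66, 1.40 and 2.81 FPKM in DVC, against 3.50, 9.94 and 9.79 FPKM in DSD. The groups did not overlap, although DSD1 came close to the DVC libraries. The log2 fold change was −1.33 ± 0.44 (SE; limma, adjusted p = 0.0343). The type-A ARR gene Pbr002919.1 had 17.1, 14.0 and 17.0 FPKM in DVC, against 18.7, 60.2 and 55.1 FPKM in DSD. Again DSD1 was close to the DVC libraries and the other DSD libraries were far above them. The log2 fold change was −1.26 ± 0.40 (SE; limma, adjusted p = 0.0295).

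Both of these calls were fragile. With the spread estimated from the 6 heterograft libraries alone the adjusted p was 0.0765 for Pbr015522.1 and 0.0973 for Pbr002919.1. The call on Pbr015522.1 was lost without DSD2 (adjusted p = 0.147), DSD3 (0.116), DVC1 (0.0662) or DVC2 (0.118), all in limma. That on Pbr002919.1 was lost without DSD2 (adjusted p = 0.157), DSD3 (0.112), DVC1 (0.0671), DVC2 (0.0801) or DVC3 (0.0532), all in limma.

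The other type-A ARR genes did not pass the test. Pbr024916.1 had 24.2, 39.0 and 47.3 FPKM in DVC, against 48.6, 44.8 and 42.0 FPKM in DSD, a difference of −0.33 ± 0.20 on the log2 scale (SE; limma, adjusted p = 0.237). Pbr009193.1 had 26.1, 39.1 and 34.6 FPKM in DVC, against 54.7, 47.8 and 37.0 FPKM in DSD, a difference of −0.47 ± 0.29 on the log2 scale (SE; limma, adjusted p = 0.263). In both genes at least 1 DVC library lay within the DSD range. The type-B ARR gene Pbr012127.1, a transcriptional activator, was the most abundant of the 17 in the DVC libraries by FPKM. It had 66.8, 67.7 and 64.5 FPKM in DVC, against 49.7, 55.7 and 60.9 FPKM in DSD. All DVC libraries were higher, and the log2 fold change of 0.26 ± 0.09 (SE) passed the adjusted p narrowly (limma, 0.0472) and was far below the threshold on fold. That pass was lost without a filter on levels (adjusted p = 0.0560), with upper-quartile scaling (0.0911), without the trend (0.0660) and with only the 6 heterograft libraries (0.137), all in limma. It was also lost in 5 of the 6 fits that left out a library, where the adjusted p in limma was 0.0665 to 0.185.

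**Figure D2:**
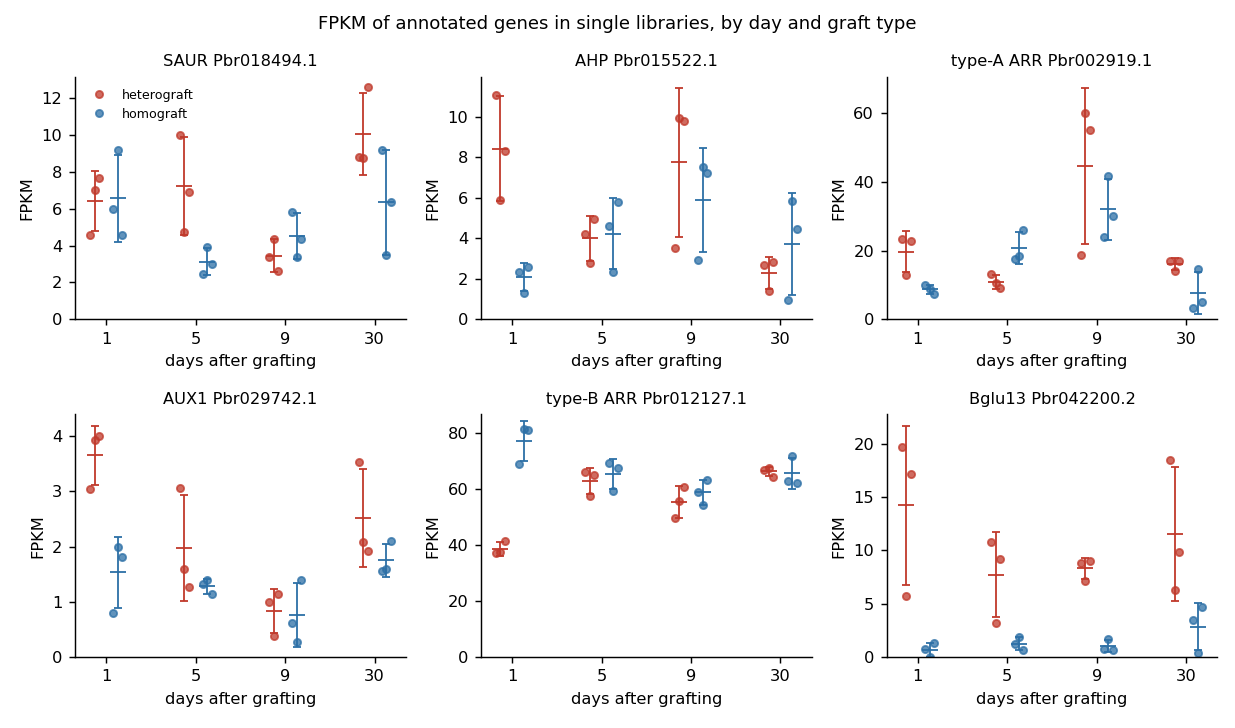
FPKM (vertical axis, from 0) of 6 genes with a stated role in single libraries, by days after grafting (horizontal axis), for heterografts and homografts. Points are libraries, horizontal marks are means of 3 and bars are SD. In the heterografts, the type-A ARR gene Pbr002919.1 averaged 16 FPKM at day 30 and 44.7 FPKM at day 9.

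β-Glucosidases release glucose from β-glucosides, including cell wall fragments and stored conjugates. PbBglu13 (Pbr042200.2) had 18.4, 6.24 and 9.87 FPKM in DVC, against 8.82, 7.11 and 8.95 FPKM in DSD. DVC1 was far above the rest and DVC2 was below all DSD libraries, so the days overlapped. The log2 fold change was 0.32 ± 0.52 (SE; limma, adjusted p = 0.709) and it turned to −0.06 without DVC1. In the homografts the gene was expressed at a lower level, with 3.44, 0.358 and 4.66 FPKM in SVC, against 0.764, 1.64 and 0.653 FPKM in SSD. There the log2 fold change was 0.72 (limma, adjusted p = 0.334), and the difference between the steps was −0.40 ± 0.74 (SE; limma, adjusted p = 1.00).

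Across the 4 days of the heterograft series the annotated genes differed in when they peaked. The GH3 gene Pbr007550.1 averaged 8.22, 2.48, 1.33 and 0.477 FPKM at 1, 5, 9 and 30 DAG, so its day 30 mean was the lowest of the series. The SAUR gene Pbr009936.1 averaged 18.2, 1.92, 2.17 and 1.13 FPKM on the same days. The AUX1 gene Pbr029742.1 had its low point at 9 DAG, with 3.66, 1.97, 0.833 and 2.51 FPKM. The type-A ARR gene Pbr002919.1 had its high point there, with 19.8, 11.0, 44.7 and 16 FPKM. PbBglu13 averaged 14.2, 7.71, 8.30 and 11.5 FPKM. These are means of 3 libraries, given as a description and not tested between the earlier days.

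The study drew 15 further genes for quantitative PCR, which have no stated role. Of these 1 rose (1.79% of all tested genes did) and 0 fell. At the adjusted p alone 4 of the 15 were higher and 1 was lower in DVC in limma, beside 12.5% and 9.79% of all tested genes. Their log2 fold changes ran from −0.81 to 1.55, with a median of 0.07. The gene that rose, Pbr015699.1, named after its values were seen, had 72.0, 62.1 and 85.2 FPKM in DVC, against 18.4, 22.3 and 34.2 FPKM in DSD. The groups were far apart, 1.55 ± 0.26 on the log2 scale (SE; limma, adjusted p = 0.000548). In the homografts it changed by 1.45.

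The largest rises by log2 fold change among calls without overlap were those of Pbr008858.1 and Pbr012027.1. A ranking by fold change favours genes with low values at day 9. Pbr008858.1 had 164, 61.9 and 149 FPKM in DVC, against 7.25, 6.12 and 16.8 FPKM in DSD, and its log2 fold change was 3.52 ± 0.84 (SE; limma, adjusted p = 0.00600). Pbr012027.1 had 37.2, 20.7 and 18.3 FPKM in DVC, against 1.14, 0.648 and 3.93 FPKM in DSD, and its log2 fold change was 3.28 ± 0.37 (SE; limma, adjusted p = 4.0e-05). In both genes the lowest DVC library was several times the highest DSD library.

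The largest falls were those of Pbr012309.1 and Pbr032603.1. Pbr012309.1 had 14.5, 4.72 and 4.47 FPKM in DVC, against 46.5, 34.4 and 149 FPKM in DSD, and its log2 fold change was −3.01 ± 0.47 (SE; limma, adjusted p = 0.000343). Pbr032603.1 had 8.74, 9.59 and 17.7 FPKM in DVC, against 19.3, 238 and 126 FPKM in DSD, and its log2 fold change was −2.77 ± 0.65 (SE; limma, adjusted p = 0.00548). In Pbr032603.1 DSD1 lay just above the highest DVC library, far below DSD2 and DSD3.

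Rises were larger than falls at the upper end in the fit on all libraries. These sizes were not recounted with a library left out. Among the genes that rose, 114 changed by more than 1.5 on the log2 scale, 42 by more than 2, 18 by more than 2.5 and 6 by more than 3. Among the genes that fell the counts at those sizes were 48, 18, 4 and 1. The median log2 fold change was 1.27 for the 448 genes that rose and −1.18 for the 369 that fell. The 42 genes that rose by more than 2 had a median level of 25.2 FPKM in DVC and 3.24 FPKM in DSD. The 18 that fell by more than 2 had a median level of 7.48 FPKM in DVC and 45.7 FPKM in DSD.

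In 438 of the 448 genes that rose, every DVC library was above every DSD library, and in 10 the libraries overlapped. Among the 369 that fell, 328 did not overlap and 41 did. Over all tested genes 20.6% had DVC wholly above DSD and 13.9% wholly below. The calls were made on these same 6 libraries and largely fix this separation, so these counts are a description and not a test. The filter on levels let 116 genes pass only through the DVC libraries and 69 only through the DSD libraries. These had to differ between days, and they held 35 of the genes that rose and 22 of those that fell.

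Few genes were listed at 0 on one day and clearly expressed on the other. Of the 42812 genes, 10194 were listed at 0 in all 3 DSD libraries. Among these 1154 were above 0 in at least 1 DVC library, 91 in all 3, and 0 reached 1 FPKM in all 3, with a largest DVC mean of 2.36 FPKM. In the other direction 10116 genes were listed at 0 in all 3 DVC libraries. Among these 1076 were above 0 in at least 1 DSD library, 47 in all 3, and 1 reached 1 FPKM in all 3. The largest DSD mean was 6.59 FPKM. In reads, which could be rebuilt only for genes above 0 in at least 4 of the 24 libraries, the largest sums over 3 libraries were 25 in DVC for genes with 0 in DSD and 141 in DSD for genes with 0 in DVC.

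Calls were found at all levels of expression. The share of tested genes called was 2.37% among genes with a mean under 2 FPKM, 4.28% between 2 and 5 FPKM, 3.91% between 5 and 10 FPKM, 2.67% between 10 and 50 FPKM, 3.15% between 50 and 200 FPKM, and 5.32% among the 790 genes at 200 FPKM or more. The last class held 21 genes that rose and 21 that fell. The share that passed the adjusted p at any fold climbed steadily with level, to 58.7% in that class against 8.19% in the lowest.

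The share of summed FPKM held by called genes is given as a description, since the calls fix its direction. Genes that rose held 3.61, 2.90 and 3.39% of the summed FPKM in the DVC libraries, against 1.21, 1.06 and 1.46% in the DSD libraries. Genes that fell held 1.06, 1.28 and 1.23% in DVC, against 2.88, 3.91 and 3.08% in DSD. The most abundant gene of the DVC libraries alone held 6.65, 6.33 and 5.71% of the summed FPKM in DVC, against 3.86, 3.09 and 3.79% in DSD. Its log2 fold change was 0.80 ± 0.26 (SE; limma, adjusted p = 0.0342), below the threshold on fold. Called genes were also shorter than the rest. The median coding length implied by the FPKM values was 755 bases for genes that rose and 798 for genes that fell, against 1122 for all tested genes.

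Over the whole heterograft series, most genes that rose had their high point at day 30, and most genes that fell had theirs at day 9. Of the 448 genes that rose, 423 (94.4%) had their highest mean of the 4 days at day 30, beside 40.0% of all tested genes. Their lowest mean fell on day 1 in 176 genes, day 5 in 129 and day 9 in 143, so no single early day was the low point. Of the 369 genes that fell, 246 (66.7%) had their highest mean at day 9, beside 24% of all tested genes, 51 had it at day 5 and 72 at day 1. Day 30 was the lowest of the 4 days for 276 of them (74.8%), beside 23.1% of all tested genes, and day 1 for 74. The genes were chosen on days 9 and 30, so these shares describe the called genes and are not a test.

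**Figure D3:**
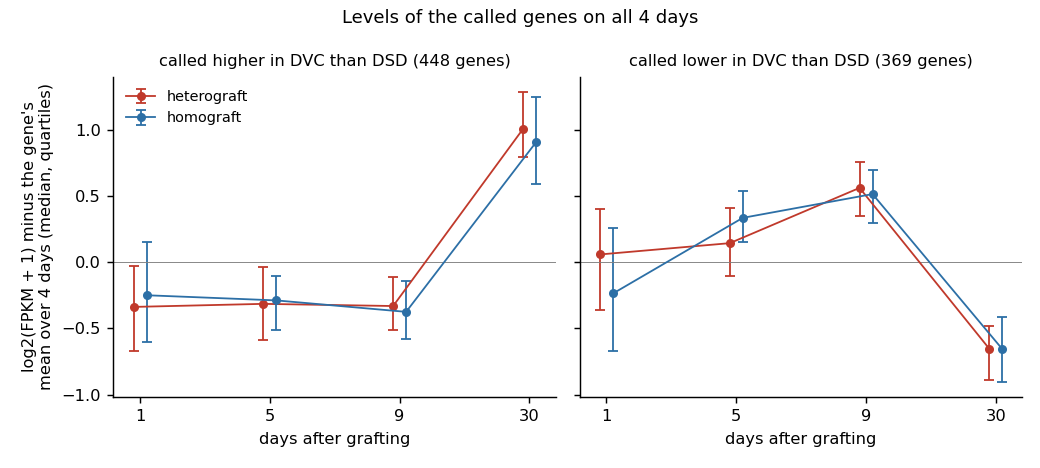
Log2(FPKM + 1) minus the gene's mean over the 4 days (vertical axis; points are medians over genes, bars are quartiles) by days after grafting (horizontal axis), for genes that rose (left) and fell (right) in DVC, in heterografts and homografts. Genes that rose have heterograft medians of −0.34, −0.31, −0.33 and 1.01 on days 1, 5, 9 and 30, and genes that fell have 0.06, 0.14, 0.56 and −0.65.

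Relative to each gene's mean over the 4 days, genes that rose stood at −0.34, −0.31 and −0.33 on the log2 scale at 1, 5 and 9 DAG and at 1.01 at 30 DAG. Genes that fell stood at 0.06, 0.14 and 0.56 at 1, 5 and 9 DAG and at −0.65 at 30 DAG. The medians of the first set were close to each other before day 30. The second set was chosen for being higher at day 9 than at day 30. Its medians climbed up to day 9, and in homografts they stood at −0.24, 0.34, 0.52 and −0.66 at 1, 5, 9 and 30 DAG. Its summed share of FPKM, which weighs abundant genes most, showed no build-up in heterografts. That share was 3.49, 3.84 and 3.50% at day 1, 2.90, 3.10 and 2.83% at day 5, and 2.88, 3.91 and 3.08% at day 9.

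The homograft libraries made a similar step. They entered neither the heterograft fold changes nor the filter on levels, but they shared the estimate of spread behind the calls, and leaving out single homograft libraries gave 806 to 827 heterograft calls. Of the 448 genes that rose in heterografts, 432 (96.4%) also had a positive log2 fold change between SVC and SSD, beside 54.9% of all tested genes. Of the 369 that fell, 361 (97.8%) also had a negative one, beside 45.0% of all tested genes. Over all tested genes 79.3% had the same sign in both steps. The median homograft change was 1.26 for the genes that rose, against 1.27 in the heterografts, and −1.13 for the genes that fell, against −1.18 in the heterografts. In the homografts 1309 genes were called (5.22%), 691 up (2.76%) and 618 down (2.46%), and 25.7% of tested genes passed the adjusted p at any fold. Both steps called 285 genes up and 236 down, and 0 in opposite directions. Those 285 are 63.6% of the heterograft rises and 41.2% of the homograft rises, and the 236 are 64.0% of the heterograft falls and 38.2% of the homograft falls. Across all tested genes the fold changes of the steps had r = 0.772 and rho = 0.740, which describes genes within these libraries and not independent replicates.

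**Figure D4:**
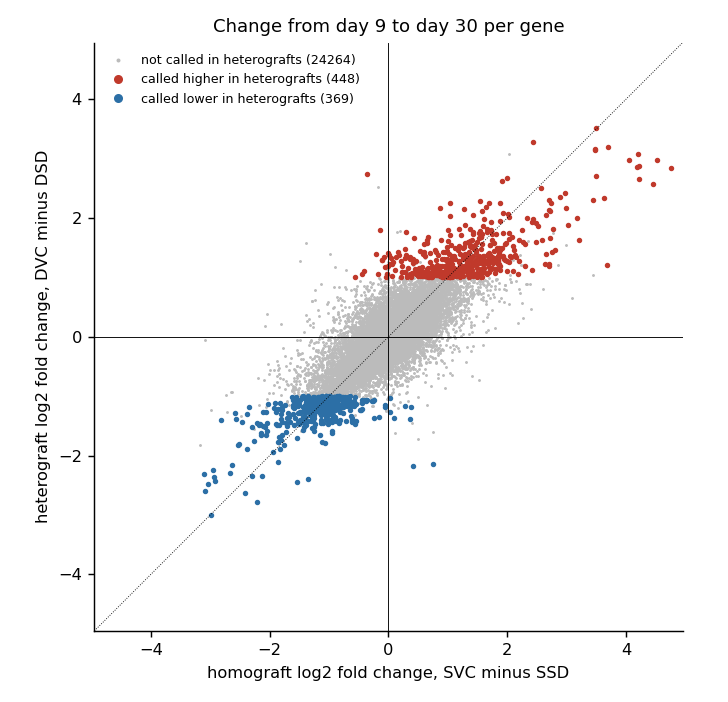
Log2 fold change per gene between day 30 and day 9 in heterografts (vertical axis, DVC minus DSD) and homografts (horizontal axis, SVC minus SSD). Points are the 25081 tested genes, coloured by their call in heterografts, and 432 of the 448 that rose and 361 of the 369 that fell have the same sign on both axes. Over all tested genes 79.3% have the same sign.

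The difference between the heterograft and homograft steps was tested gene by gene as an interaction. At an adjusted p under 0.05 limma called 0 of 25081 genes, and the lowest adjusted p was 0.418. At an unadjusted p under 0.05 there were 1216 genes (4.85%), and voom on recovered reads gave 0 adjusted and 1201 unadjusted. The median standard error of this difference was 0.42 on the log2 scale for called genes, a 95% half-width of 0.88 before adjustment. Passing the adjusted p takes a still larger difference, so even differences of about 0.88 could not be resolved for a typical called gene. In limma the lowest unadjusted p, 2.5e-05, still missed the adjusted threshold. The larger number of calls in the homografts is therefore not a shown difference. Among the annotated genes, the type-A ARR gene Pbr002919.1 fell in homografts as well, a difference of −2.11 on the log2 scale (limma, adjusted p = 0.000875). The SAUR gene Pbr018494.1 changed by 0.36 there (limma, adjusted p = 0.400), and its difference between the steps was 0.95 ± 0.42 (SE; limma, unadjusted p = 0.0346, adjusted p = 0.987).

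The largest heterograft changes recurred as well. Of the 42 genes that rose by more than 2, 39 were called up in homografts, beside 2.76% of all tested genes. Their median change there was 2.70. Of the 18 that fell by more than 2, 15 were called down there, with a median of −2.53, beside 2.46% of all tested genes called down. The homograft log2 fold changes were 3.50 for Pbr008858.1, 2.44 for Pbr012027.1, −2.99 for Pbr012309.1 and −2.21 for Pbr032603.1. In the homograft time course 390 of the 448 genes (87.1%) peaked in SVC, beside 42.3% of all tested genes, and 232 of the 369 (62.9%) peaked in SSD, beside 22.0% of all tested genes.

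Each heterograft library was placed on the axis between the homograft days, from 0 at the SSD mean to 1 at the SVC mean, by projecting its log2 values over all tested genes. The SSD and SVC means that set this axis carry noise. That noise alone moves independent libraries above 0 at the SSD end and below 1 at the SVC end. Distances from 0 and 1 therefore do not show that the grafts differ. The DVC libraries lay at 0.873, 0.717 and 0.790, against 0.200, −0.0225 and 0.165 for the DSD libraries. The sets did not overlap, and DSD2 lay below the other DSD libraries. The means were 0.793 ± 0.0778 in DVC and 0.114 ± 0.119 in DSD (SD, n = 3 each; exact permutation test, two-sided, p = 0.1, the smallest that 3 against 3 libraries allow).

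Candidate markers of the QAUP-1 scion were taken as genes at 0 in all 12 homograft libraries and at 1 FPKM or more in at least 3 of the 6 heterograft libraries of days 1 and 5. Genes induced by heterografting in either partner would meet the same rule, and these cannot be told apart from scion genes here. There were 20 such genes, and neither day 9 nor day 30 was used to choose them. Together they held 0.00669, 0.00540 and 0.00403% of the summed FPKM in DVC, against 0.00348, 0.00171 and 0.00271% in DSD. Every DVC library was above every DSD library. The means were 0.00537 ± 0.00133% in DVC and 0.00263 ± 0.000885% in DSD (SD, n = 3 each; exact permutation test, two-sided, p = 0.1, the smallest possible). Of the 20 genes 14 passed the filter on levels, with a median log2 fold change of 0.75, beside 0.03 over all tested genes. Of these 14 genes 1 rose, beside 1.79% of all tested genes. The share was 0.00766 to 0.0118% at day 1 and 0.00276 to 0.00853% at day 5. A lower share after day 5 is favoured by the choice of genes, since days 1 and 5 were used for it. The share moved with the same days as every result above, and its part in those results was not tested.

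The libraries were of similar depth. Reads on genes, recovered from the FPKM values, numbered 10778297 to 13371958 in DVC and 10373751 to 12599243 in DSD, and 10373751 to 13629999 over all 24 libraries. Between 24636 and 24995 genes reached 1 FPKM in DVC libraries and between 24358 and 24827 in DSD libraries. Squared correlations of log2 values were 0.939 to 0.965 between DVC libraries, 0.934 to 0.960 between DSD libraries and 0.864 to 0.938 across days. The pair DVC2 and DSD1 reached 0.938, as close as the least similar replicates.

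DSD1 stood somewhat apart from the other day 9 libraries, and nearer to day 30 in the genes that fell. Its root mean square deviation from the group mean was 0.295 on the log2 scale, the largest of the 12 libraries of both steps, followed by DVC1 with 0.280. For 225 of the 369 genes that fell (61.0%) DSD1 was the day 9 library nearest to day 30, against 33 for DSD2. For the genes that rose it was DSD3, in 240 of 448 (53.6%). On the axis between the homograft days DSD1 (0.200) lay close to DSD3 (0.165), and DSD2 (−0.0225) lay farthest from day 30. Leaving out DSD1 gave 1206 calls, 464 up and 742 down. Leaving out DSD2 gave 464 calls, 304 up and 160 down. Without DVC1 there were 592 calls, and without DVC2, DVC3 or DSD3 between 867 and 898. Falls also outnumbered rises without DVC3, with 418 up and 459 down. The number of falls thus depended more on single libraries than the number of rises, which stayed between 304 and 520.

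**Figure D5:**
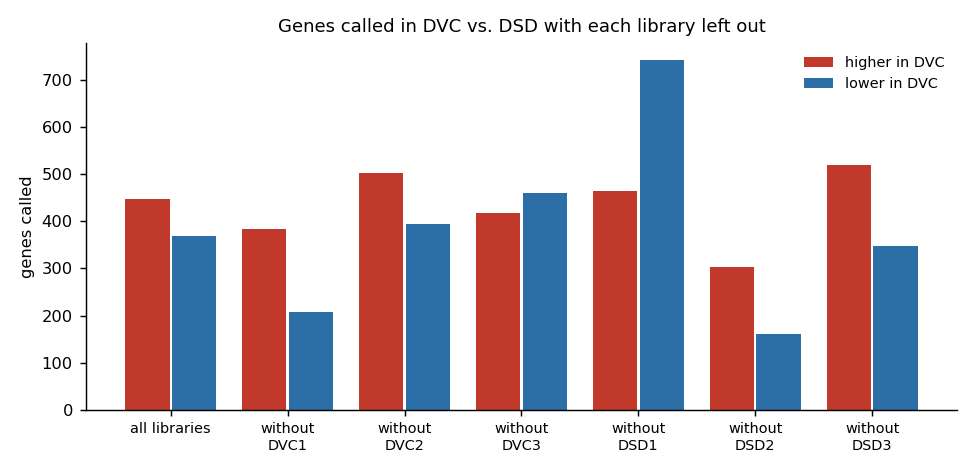
Number of genes called between DVC and DSD (vertical axis, from 0), higher and lower in DVC, with all libraries and with each of the 6 libraries left out (horizontal axis). The falls number 369 with all libraries, 742 without DSD1 and 160 without DSD2.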

How the data were processed

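Graft unions of 24 libraries (8 groups of 3, assigned from the sample titles) were measured by paired-end RNA-seq. Per the study's methods and the labels, the authors used Cutadapt for trimming, HISAT2 for alignment to a Pyrus bretschneideri scaffold genome and HTSeq for counting, and deposited FPKM values for each library, so reads of QAUP-1 were mapped to the genome of another species. Strand setting and treatment of reads that match several genes are not given in the sources used here. The deposited series description names the heterograft partners in the opposite order to the titles, and the titles were used.

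FPKM was analysed as log2(FPKM + 1) with limma 3.58.1 (R 4.3.3), with a mean-variance trend. All 24 libraries and 8 groups entered the fit, so the contrasts share 1 estimate of spread (16 residual degrees of freedom). Tests were two-sided with Benjamini-Hochberg adjustment over the 25081 tested genes. A gene was called at an adjusted p under 0.05 and an absolute log2 fold change over 1. The study's own threshold does not state an adjustment. The p-values from limma set each difference against the spread between replicate libraries in all 8 groups, and not in the compared groups alone. Permutation tests, descriptions and figures used Python 3.11.15, and the fit was tested on simulated data. From the FPKM steps, whole reads could be rebuilt in 32966 of 32966 genes above 0 in at least 4 libraries (tolerance 0.02 reads), and these gave depths and a voom alternative.

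Named genes are those whose role in the study was used here, the 2 largest rises and 2 largest falls among calls without overlap, and exceptions marked in the text. Members, lists and tests were chosen with earlier results of these data known. Alternatives varied pseudocount, filter, scaling, trend, libraries in the fit, p threshold, replicate block, unit and each library. No sequences are shown.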

Additional observations from a re-analysis of the deposited data

How the results depend on the processing

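The count of 817 calls between DVC and DSD became 464 (329 up, 135 down) with only the libraries of the contrast in the fit, and ranged from 464 to 1206 when each library was left out (464 without DSD2, 1206 without DSD1). Other settings gave 591 to 1076 calls: 1068 with a pseudocount of 0.1, 791 without a filter, 591 with a filter of 5 FPKM, 804 with upper-quartile scaling (390 up, 414 down), 801 without the trend, 1076 with voom on recovered reads and 915 at an unadjusted p. Homograft calls ranged from 1006 to 1671 when a homograft library was left out. The difference of the steps had 0 calls in every setting at an adjusted p, and 1216 at an unadjusted p.

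The share of heterograft calls with the same sign in homografts was 95.9 to 97.6% with each library left out, an alternative chosen after seeing the data. Over all tested genes it was 79.3% with all libraries. Of the genes with a role 3 were called, 5 with a pseudocount of 0.1, 1 with only the libraries of the contrast, and 1 to 5 with a library left out. The sign turned with a library left out for Pbr033508.2 (−0.29 to 0.19), Pbr042214.1 (−0.37 to 0.56), Pbr010681.1 (−0.65 to 0.52), Pbr023262.1 (−0.61 to 0.15) and PbBglu13, Pbr042200.2 (−0.061 to 0.65), none of them called. The difference in marker share was 0.00208 to 0.00341 percentage points with a library left out. With the replicate block there were 823 calls (451 up, 372 down). The deviations of same-numbered heterograft libraries from their group means had r of −0.096, 0.024 and −0.069. Pairs with different numbers ran from −0.21 to 0.22. The labels do not say what a number stands for, and these values cannot decide whether libraries were paired.

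Depth limits genes with few reads, and DSD1 and DSD2 limit the count of falls.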
